A study of Mus musculus with 15 samples.

Results

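The unfolded protein response was followed here through 10 genes in the pancreatic islets of mice on 3 diets. They are Hspa5, Hsp90b1, Dnajc3, Atf6, Ern1, Eif2ak3, Xbp1, Atf4, Ddit3 and Trib3, and they were taken by name from the 21951 protein-coding genes of the mouse annotation used. For each gene, peaks of 2 histone marks were collected when they overlapped its promoter, defined as 1 kb either side of the start site, or its gene body with 20 kb either side. The start site was the 5′ end of the gene in GENCODE release M21 of the GRCm38 build.

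Chromatin immunoprecipitation followed by sequencing (ChIP-seq) had been carried out on islets of male CBA mice fed a regular diet (RD), a high-fat diet (HFD), or the same high-fat diet containing O304 (HFD-O304), an activator of the energy sensor AMPK. All 3 groups were of the CBA strain, and diet was the only difference between them that the labels give. The labels describe 12 ChIP samples, 2 for each mark and diet, and 3 inputs, and about 600 islets, pooled before lysis, went into each ChIP experiment. Lysine 27 of histone H3 is acetylated (H3K27Ac) at promoters and enhancers in use and trimethylated (H3K27Me3) by Polycomb complexes where genes are kept silent.

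The authors merged the replicates before calling peaks, so each mark and diet had 1 list and no spread between replicates could be measured. No test between diets was therefore possible. The intervals below are 95% Poisson intervals of the fragment counts, cover counting error only, and compare peak lists rather than diets. In islets, a mixture of endocrine cells, a smaller number of cells carrying a mark and a smaller amount of the mark per cell cannot be told apart. Each list held between 54166902 and 95218072 fragments after removal of duplicates, which made up 17.2% to 18.4% of the H3K27Ac and 45.7% to 56.9% of the H3K27Me3 fragments. The H3K27Ac lists of RD, HFD and HFD-O304 held 16314, 21674 and 20305 peaks, and those of H3K27Me3 held 15517, 15438 and 22049. As a check of the tissue label, H3K27Ac was present at the promoters of 5, 6 and 5 of 9 islet markers in RD, HFD and HFD-O304. Over all protein-coding genes the share was 44.1%, 49.8% and 49.4%, so these counts by themselves say little about the tissue. Nkx6-1, Isl1, Mafa and Pdx1, transcription factors of the beta cell, had an H3K27Ac peak in each diet. Neurod1 had one in HFD and HFD-O304 but not in RD, and Ins1 had one in RD and HFD. The hormone genes Ins2, Gcg and Sst had none at the annotated start site. Among markers of other cells, H3K27Ac was present at 1 of 5 acinar genes in each diet (Bhlha15). No endothelial, macrophage or fibroblast marker, 4 genes each, had an H3K27Ac promoter peak in any diet.

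The unfolded protein response is the programme by which a cell adjusts to misfolded protein in the endoplasmic reticulum (ER). Its sensors IRE1 (encoded by Ern1), PERK (Eif2ak3) and ATF6 are held inactive by the chaperone BiP (Hspa5). Once released, they act through the transcription factors XBP1, ATF4 and ATF6 itself on genes for chaperones, protein degradation and, under lasting stress, cell death. Beta cells make and fold large amounts of proinsulin and are known to depend on the PERK and IRE1 branches.

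The promoters of Hspa5, Hsp90b1 and Dnajc3, the chaperones and co-chaperone of the group, share a known sequence. Genes and motifs were both chosen as parts of this pathway, so the match is a description and not independent support. The ER stress response element, to which NF-Y and ATF6 bind, reads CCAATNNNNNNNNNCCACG, and exact matches were sought on both strands. RefSeq promoter entries of GRCm38.p6, from 250 bases before to 50 after the RefSeq start site, were found for 9 of the 10 genes. The element was found in 3 of the 9, Hspa5, Hsp90b1 and Dnajc3, compared with 26 of 16522 promoters of that length (0.157%). The 26 include these 3. These 3 promoters are shown with the bases of the element that are fixed in capitals, together with that of Trib3. In Trib3, capitals mark a site for ATF4 and CHOP (TGATGNAA), which occurs in 3.52% of promoters. Each sequence runs from 250 bases before to 30 after the RefSeq start site, on the strand of the gene. They lie at chr2:34771840-34772119 on the + strand (Hspa5), chr10:86705415-86705694 on the − strand (Hsp90b1), chr14:118937682-118937961 on the + strand (Dnajc3) and chr2:152344031-152344310 on the − strand (Trib3).
Hspa5: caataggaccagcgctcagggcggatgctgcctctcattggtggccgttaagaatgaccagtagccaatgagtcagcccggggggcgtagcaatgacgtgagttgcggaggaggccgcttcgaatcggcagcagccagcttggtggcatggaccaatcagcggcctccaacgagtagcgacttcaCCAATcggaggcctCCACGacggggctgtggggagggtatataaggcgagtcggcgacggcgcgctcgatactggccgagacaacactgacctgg
Hsp90b1: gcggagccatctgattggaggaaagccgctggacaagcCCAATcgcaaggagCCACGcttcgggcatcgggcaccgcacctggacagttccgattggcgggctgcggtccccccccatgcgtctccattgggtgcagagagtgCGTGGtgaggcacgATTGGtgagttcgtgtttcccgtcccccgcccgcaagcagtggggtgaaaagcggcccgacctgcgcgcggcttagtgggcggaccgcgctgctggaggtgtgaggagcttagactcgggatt
Dnajc3: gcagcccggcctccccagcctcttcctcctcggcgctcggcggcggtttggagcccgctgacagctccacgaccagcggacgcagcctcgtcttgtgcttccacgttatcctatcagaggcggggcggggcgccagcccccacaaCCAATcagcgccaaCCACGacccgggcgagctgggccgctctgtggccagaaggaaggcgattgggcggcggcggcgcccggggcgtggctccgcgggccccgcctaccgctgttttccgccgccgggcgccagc
Trib3: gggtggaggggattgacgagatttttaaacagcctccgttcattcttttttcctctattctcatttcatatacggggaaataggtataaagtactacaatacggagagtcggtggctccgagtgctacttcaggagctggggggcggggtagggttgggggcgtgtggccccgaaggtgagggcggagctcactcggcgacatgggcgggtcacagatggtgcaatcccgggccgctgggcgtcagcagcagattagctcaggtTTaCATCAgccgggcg

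Relative to the RefSeq start site, the element lay at −65 to −47 in Hspa5 and at −105 to −87 in Dnajc3, both on the strand of the gene. Hsp90b1 held 2 copies, at −212 to −194 on its own strand and at −107 to −89 on the opposite strand. The site in Trib3 lay at 14 to 21 bases past the start, on the opposite strand. The bases shown are those of the C57BL/6J reference, and the CBA sequence was not analysed here. RefSeq and GENCODE start sites differed by 0 to 120 bp, the largest distance being that of Hspa5.

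None of the 9 promoters held the second form of the element (ATTGGNCCACG) or the XBP1 core site (TGACGTGG), found in 0.0484% and 0.696% of promoters. The single boxes were common everywhere. The CCAAT box was found in 6 of the 9 promoters and in 38.8% of all, and the CCACG box in 5 of the 9 and in 38% of all. Both boxes are counted also where they form part of a longer element. Of the Xbp1 promoter, the most highly acetylated of the group in RD and HFD, no match to any of these motifs was found in the window. The member promoters had a median GC content of 60.7%, against 57.0% over all promoters, and a median ratio of observed to expected CpG of 0.83, against 0.60.

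All 10 genes had an H3K27Ac peak at the promoter with each of the diets, and none had an H3K27Me3 peak there in any diet. Over all protein-coding genes, the share of promoters with H3K27Ac was 44.1% in the RD list, 49.8% in the HFD list and 49.4% in the HFD-O304 list, and 42.5% had it in all 3 lists. H3K27Me3 was present at 6.63%, 8.46% and 8.87% of promoters, and of the 9333 promoters with H3K27Ac in all 3 diets only 4.5% had H3K27Me3 in any. The absence of H3K27Me3 from the members was thus the rule among acetylated promoters. It holds down to the lowest pileup that was called, which was 2.74 times the background in RD, 3.10 times in HFD and 2.97 times in HFD-O304. A weaker enrichment was not detectable in these lists.

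The level of H3K27Ac is given as the mean pileup of the promoter peak, in fragments per base, divided by the uniform background of the list. That background is the number of kept fragments times the fragment size over the effective genome size, and it was 12.1, 13.7 and 12.2 fragments per base in RD, HFD and HFD-O304. The members had medians of 3.52, 4.08 and 3.76 by diet in that order, compared with 3.17, 3.27 and 3.30 over all promoters with a peak. Their peaks were also wide, with medians of 1776, 1590 and 1687 bp against 967, 1086 and 1062 bp over all promoters with a peak. The plot of the members among all acetylated promoters shows them on both sides of its middle, with more above it than below. Above the 50th percentile lay 7 of the 10 in RD and 8 in either other list.

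**Figure D1:**
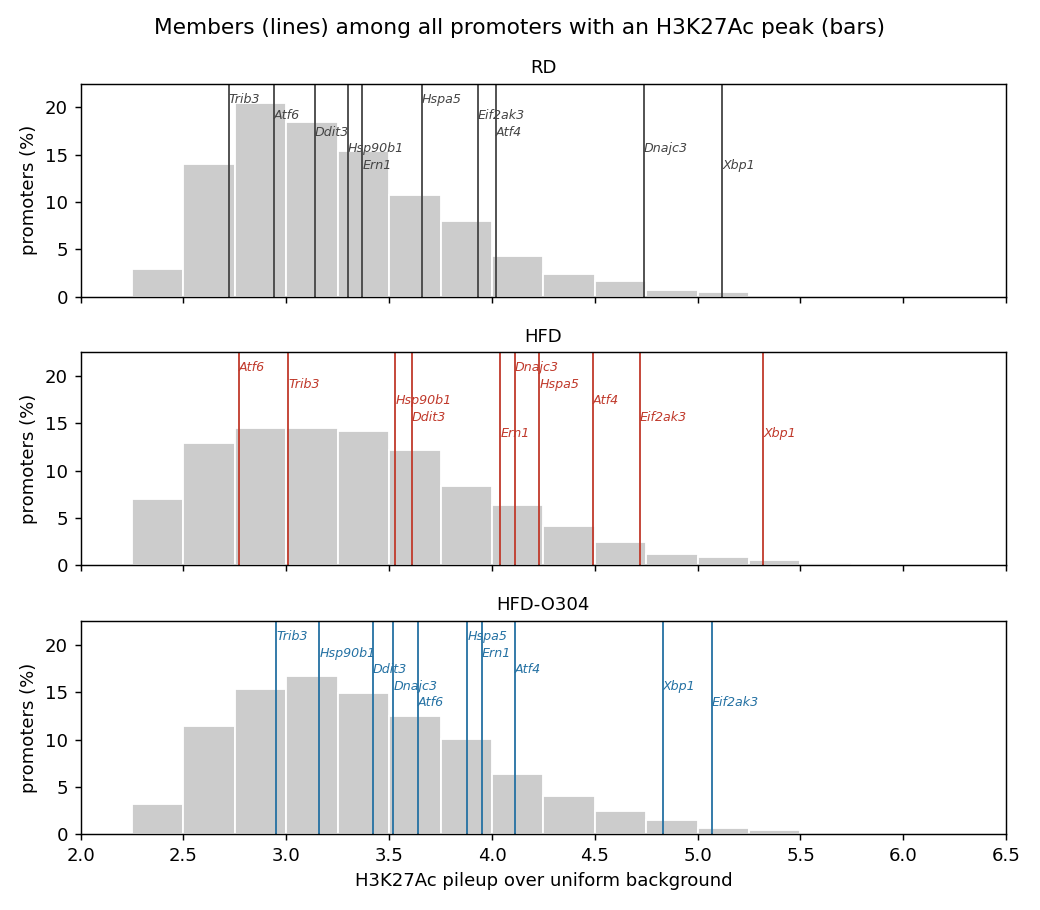
Distribution of H3K27Ac pileup over uniform background at all promoters with a peak (bars, percent of promoters per bin) in RD, HFD and HFD-O304, with the 10 unfolded protein response genes as lines. Trib3 lay at the 14.6th percentile in RD and Xbp1 at the 99.4th.

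BiP, the product of Hspa5, is the main chaperone of the ER and the one that restrains the stress sensors. Its gene lies at chr2:34771970-34777547 on the + strand. The H3K27Ac pileup at its promoter was 3.66 times the background in RD (95% interval 3.37 to 3.97), 4.23 in HFD (3.81 to 4.69) and 3.88 in HFD-O304 (3.45 to 4.34). The peak had the shape of a long domain only in RD, where it reached 2822 bp into the gene and was 3477 bp wide. In HFD it ended 865 bp past the start site and was 1671 bp wide, and in HFD-O304 it ended at 961 bp and was 1709 bp wide. The RD value is thus a mean over a longer stretch of the gene.

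Hsp90b1 encodes GRP94, the HSP90 of the ER, and lies at chr10:86690209-86705509 on the − strand. Its promoter had a pileup of 3.30 times the background in RD (2.91 to 3.71), 3.53 in HFD (3.18 to 3.90) and 3.16 in HFD-O304 (2.81 to 3.54). The intervals of the 3 lists overlapped. The peak was 1829, 2155 and 2060 bp wide, and in each diet it also covered the start site of the neighbouring gene Ttc41, so that the signal of these promoters was not separated.

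Dnajc3, at chr14:118937976-118981697 on the + strand, encodes p58IPK, a co-chaperone of BiP. Among the members it was the only one with values in descending order from RD to HFD to HFD-O304. The pileup was 4.74 times the background in RD (4.18 to 5.36), 4.11 in HFD (3.62 to 4.66) and 3.52 in HFD-O304 (3.08 to 4.00), with widths of 1210, 1207 and 1474 bp. The value in RD stood at the 98.4th percentile of acetylated promoters and the value in HFD-O304 at the 62.9th.

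Among the sensors, Atf6 (chr1:170704674-170867771, − strand), whose protein is cut in the Golgi to release a transcription factor, had a small peak. Its pileup was 2.94 times the background in RD (2.37 to 3.64), 2.77 in HFD (2.25 to 3.39) and 3.64 in HFD-O304 (2.88 to 4.53). The peaks were 664, 680 and 480 bp wide and rested on 88, 96 and 79 fragments, so the intervals were broad and overlapped.

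Ern1 (chr11:106394650-106487852, − strand) encodes IRE1, the kinase and nuclease that splices Xbp1 mRNA. Its pileup was 3.37 times the background in RD (2.56 to 4.36), 4.04 in HFD (3.54 to 4.58) and 3.95 in HFD-O304 (3.52 to 4.43). The intervals of the height overlapped, while the extent of the peak differed between lists. The RD peak measured 384 bp and lay wholly downstream, from 40 to 423 bp past the start site. In HFD the peak covered the start site, from −424 to 753 bp, and in HFD-O304 it ran from −439 to 1225 bp, with widths of 1178 and 1665 bp. Multiplied by the share of the promoter window that the peak covered, which counts the uncovered bases as 0, the levels were 0.65, 2.38 and 2.85 in the same order, a fold of HFD over RD of 3.68.

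Eif2ak3 (chr6:70844515-70905245, + strand) encodes PERK, the kinase that phosphorylates eIF2α and slows translation. Its pileup was 3.93 times the background in RD (3.51 to 4.38), 4.72 in HFD (4.24 to 5.22) and 5.07 in HFD-O304 (4.53 to 5.68). Among the members it was the only one with values in ascending order over these lists, and its RD and HFD-O304 intervals did not overlap. The width of the peak went the other way, from 1835 through 1509 to 1335 bp.

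**Figure D2:**
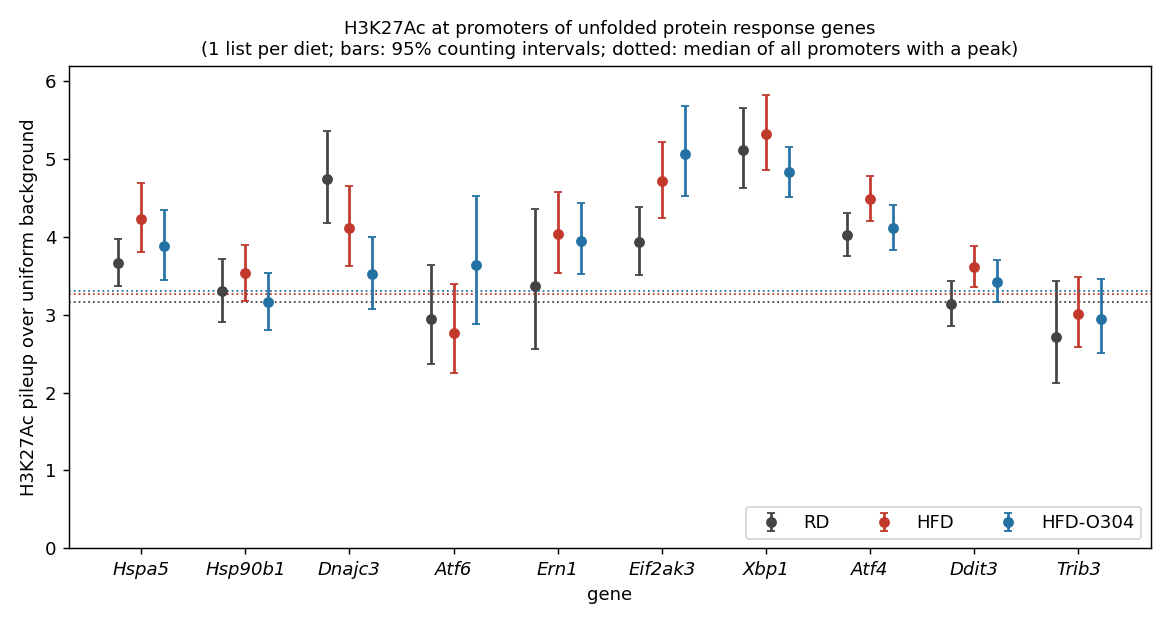
H3K27Ac pileup over uniform background at the promoters of the 10 genes (points) in RD, HFD and HFD-O304, with 95% counting intervals (bars) and the median of all promoters with a peak in each diet (dotted lines). Xbp1 lay highest in RD and HFD (5.12 and 5.32), Eif2ak3 in HFD-O304 (5.07), and the intervals of RD and HFD-O304 did not overlap for Dnajc3 and Eif2ak3.

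Xbp1, the transcription factor of the IRE1 branch, had the highest promoter acetylation of the group in RD and HFD. The gene lies at chr11:5520659-5525893 on the + strand. The pileup was 5.12 times the background in RD (4.63 to 5.65), 5.32 in HFD (4.86 to 5.82) and 4.83 in HFD-O304 (4.51 to 5.16), between the 97.5th and 99.4th percentiles of acetylated promoters. The intervals overlapped, while the widths were 1723, 1781 and 3905 bp in the same order. In RD a separate peak over exons of the gene, 981 bp wide with a pileup of 2.46 times the background, was centred 3.2 kb past the start site, and the HFD-O304 promoter peak reached 2588 bp past it. The fold of HFD-O304 over RD was 0.94, and 1.64 when the pileup was weighted by the share of the promoter window covered.

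Atf4 (chr15:80255184-80257541, + strand), the transcription factor of the PERK branch, had the widest peak of the group in each diet, at 4393, 4161 and 4321 bp. The peak covered the whole gene. Its pileup was 4.02 times the background in RD (3.75 to 4.31), 4.49 in HFD (4.21 to 4.78) and 4.11 in HFD-O304 (3.83 to 4.41), so that the HFD list was highest and the intervals of the 3 lists overlapped.

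Ddit3 (chr10:127290774-127296288, + strand) encodes CHOP, a factor that ATF4 induces and that promotes cell death under lasting ER stress. Its pileup was 3.14 times the background in RD (2.86 to 3.44), 3.61 in HFD (3.36 to 3.88) and 3.42 in HFD-O304 (3.17 to 3.70). The peak was 3241, 4023 and 4190 bp wide and began at −2404, −2627 and −2920 bp from the start site, which takes in the start of Mbd6, so that part of its signal lay at another promoter.

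Trib3 (chr2:152337422-152344032, − strand), a pseudokinase gene induced late by ATF4 and CHOP, had the weakest peak of the group in RD and HFD-O304. The pileup was 2.72 times the background in RD (2.12 to 3.44), 3.01 in HFD (2.58 to 3.48) and 2.95 in HFD-O304 (2.51 to 3.46), and the widths were 574, 1156 and 1166 bp. The intervals overlapped. The RD peak lay close to the limit of the list, with a −log10 q of 3.62 and a pileup not far above the lowest one called, 2.40 times the background. Weighted by the share of the window covered, as for Ern1, the levels were 0.78, 1.74 and 1.72, a fold of HFD over RD of 2.23.

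**Figure D3:**
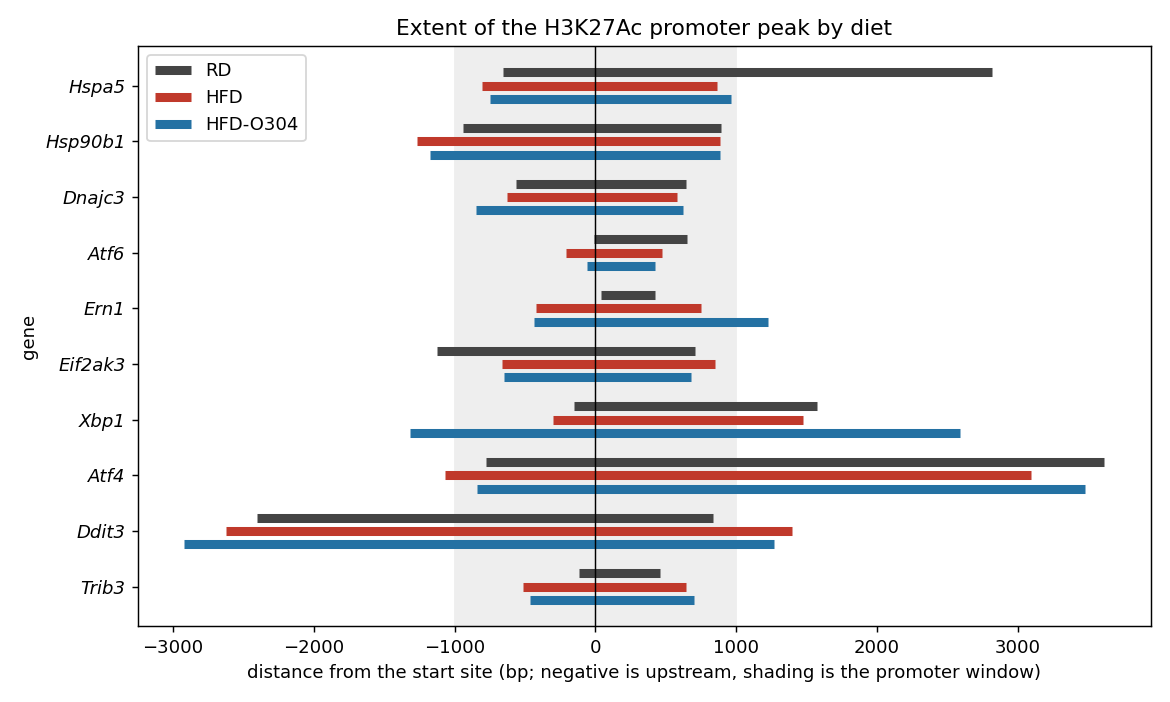
Extent of the H3K27Ac promoter peak of each gene by diet, as distance in bp from the start site, with negative values upstream and the promoter window shaded. The Hspa5 peak was longest in RD, the Xbp1 peak in HFD-O304, and the Ern1 peak of RD (384 bp) lay wholly past the start site.

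Set against each other, the members were higher in HFD than in RD in 8 of 10 cases, with a median fold of 1.11 and a range from 0.87 (Dnajc3) to 1.20. Most acetylated promoters leaned the same way. Of the 9492 promoters with a peak in both lists, 66.5% were higher in HFD and the median fold was 1.05. The counting interval of the fold lay above 1 for 4 members, Hspa5 (1.15, 1.01 to 1.32), Eif2ak3 (1.20, 1.03 to 1.40), Atf4 (1.12, 1.01 to 1.23) and Ddit3 (1.15, 1.02 to 1.30), and below 1 for 0. Over all promoters the interval lay above 1 in 8.31% and below 1 in 0.822%. The HFD peaks of these 4 genes stood between the 72.2nd and 98.5th percentiles of width, and wider peaks hold more fragments and so have narrower intervals. The folds also compare means over peaks of unequal length. The HFD peaks were 0.48, 0.82, 0.95 and 1.24 times as wide as those of RD, in the order Hspa5, Eif2ak3, Atf4 and Ddit3. Weighted by the share of the promoter window covered, the folds were 1.16, 1.06, 1.26 and 1.25 in that order. The weighting still used the mean over the whole peak, including bases outside the window. It therefore did not bring these folds onto stretches of equal length.

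HFD-O304 was lower than HFD at 8 of the 10 members, the exceptions being Atf6 (fold 1.31, 0.96 to 1.78) and Eif2ak3 (1.08, 0.92 to 1.26). The median fold was 0.93, whereas the 10321 promoters with a peak in both lists had a median of 1.01 and 55.4% were higher in HFD-O304. The interval spanned 1 for all 10 members, so no single gene differed beyond counting error. The directions also depended on how the peak ends were treated. Weighted by the share of the promoter window covered, 5 of the 10 turned, namely Atf6 (0.93), Eif2ak3 (0.95), Dnajc3 (1.05), Ern1 (1.20) and Xbp1 (1.39), and 3 of the 10 were then higher in HFD-O304. Over all promoters it lay above 1 in 2.39% and below 1 in 1.96%.

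Between HFD-O304 and RD, 7 of the 10 members were higher in HFD-O304, with a median fold of 1.07 against 1.06 over 9440 promoters, of which 71.1% were higher. The interval lay above 1 for 1 member, Eif2ak3 (1.29, 1.10 to 1.52), and below 1 for 1 member, Dnajc3 (0.74, 0.62 to 0.89). Over all promoters it lay above 1 in 8.53% and below 1 in 0.646%. Ranked among these promoters by fold, Dnajc3 stood at percentile 0.1 and Eif2ak3 at percentile 95.2. Both peaks also changed width between the lists. When the pileup was weighted by the share of the promoter window that the peak covered, the fold was 0.91 for Dnajc3 and 1.01 for Eif2ak3. The direction turned for 2 members, Atf6 (from 1.24 to 0.90) and Xbp1 (from 0.94 to 1.64). The 3 comparisons share their lists and are not independent of each other.

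Peaks were next counted within 20 kb of the gene bodies, windows with a median length of 50956 bp for the members and 57403 bp over all genes. All 10 members had an H3K27Ac peak in this window in each diet, as their promoters alone ensure, against 63.3%, 69.5% and 68% of all genes in RD, HFD and HFD-O304. The median number of such peaks was 2 for the members and 1 over all genes in each list. In RD, HFD and HFD-O304 there were 21, 24 and 22 H3K27Ac peaks, of which 10 in each diet lay at the promoters of the members. A further 7, 7 and 8 lay at promoters of neighbouring genes, such as Gapvd1 near Hspa5 (3.01, 4.29 and 4.55 times the background) and Ccdc117 near Xbp1 (4.40, 4.63 and 4.35 times). The remaining 4, 7 and 4 lay at no protein-coding promoter. The extra neighbouring promoter in HFD-O304 was that of Mief1 near Atf4, whose peak came within 19359 bp of the gene in HFD-O304 but stayed at 20438 and 20419 bp in RD and HFD, just outside the window.

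Of the H3K27Ac peaks away from promoters, 2 were found in all 3 diets. One was centred in RD at −13.4 kb from the Ern1 start site, over the small nucleolar RNA gene Snord104, at 3.42, 3.18 and 3.59 times the background in RD, HFD and HFD-O304. The other lay 19.7 kb downstream of the Hsp90b1 start site, 4071 to 4126 bp past the end of the gene and at the start of the transcribed pseudogene 1810014B01Rik, at 2.79, 3.38 and 3.52 times. Both are thus at annotated noncoding genes. A peak centred −15.1 kb from the Dnajc3 start site, within the gene Dzip1, was called in RD (2.89 times) and HFD-O304 (2.57 times) and not in HFD.

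Other H3K27Ac peaks away from promoters were weak. In the Ern1 window, HFD had peaks within an intron 46.5 kb past the start site (2.35 times), at 95.1 kb, past the end of the gene (2.26 times), and at 112.9 kb, in Prr29 (2.35 times), where HFD-O304 also had one (2.50 times). The first and second of these held 58.2% and 53.7% repeat-masked bases. Near Xbp1, HFD alone had a peak centred 13.1 kb past the start site (2.38 times). The lowest pileup called was 2.26 times the background in HFD, 2.40 times in RD and 2.37 times in HFD-O304, and the deeper HFD list could therefore hold peaks that the others could not.

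H3K27Me3 within these windows was confined to 3 genes, Hsp90b1, Dnajc3 and Xbp1, with 4, 3 and 4 peaks by diet in the same order, all of them away from promoters. By diet, 3, 1 and 2 of the 10 members had one, while over all genes the share was 29.9%, 30.6% and 36.4%. The counts rest on 10 genes and on windows of shorter median length, and their difference from that share was not tested. At Hsp90b1 each diet had such peaks, which began 6821 to 13222 bp past the end of the gene and had pileups of 2.94 to 3.90 times the background. Of their bases, 62.6% to 100.0% were repeat-masked. At Xbp1 a single peak of 225 bp, in RD, lay wholly in repeats.

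The 1 place where the marks met was the Dnajc3 intron, about 25 kb past the start site. H3K27Ac was called there only in HFD, at chr14:118962919-118963418 with a pileup of 2.41 times the background and a −log10 q of 2.79. H3K27Me3 was called in RD, at chr14:118963040-118964315 with 2.96 times the background, and in HFD-O304, at chr14:118963089-118963858 with 4.11 times and a −log10 q of 6.43, but not in HFD. The H3K27Ac peak overlapped the H3K27Me3 peaks by 379 and 330 bp, and none of these peaks held repeat-masked bases. The RD level of H3K27Me3 lay below the lowest value callable in HFD (3.10), so a level like that of RD would not have been called in HFD. The level of HFD-O304 would have been. The H3K27Ac level lay near the limits of RD and HFD-O304 (2.40 and 2.37).

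**Figure D4:**
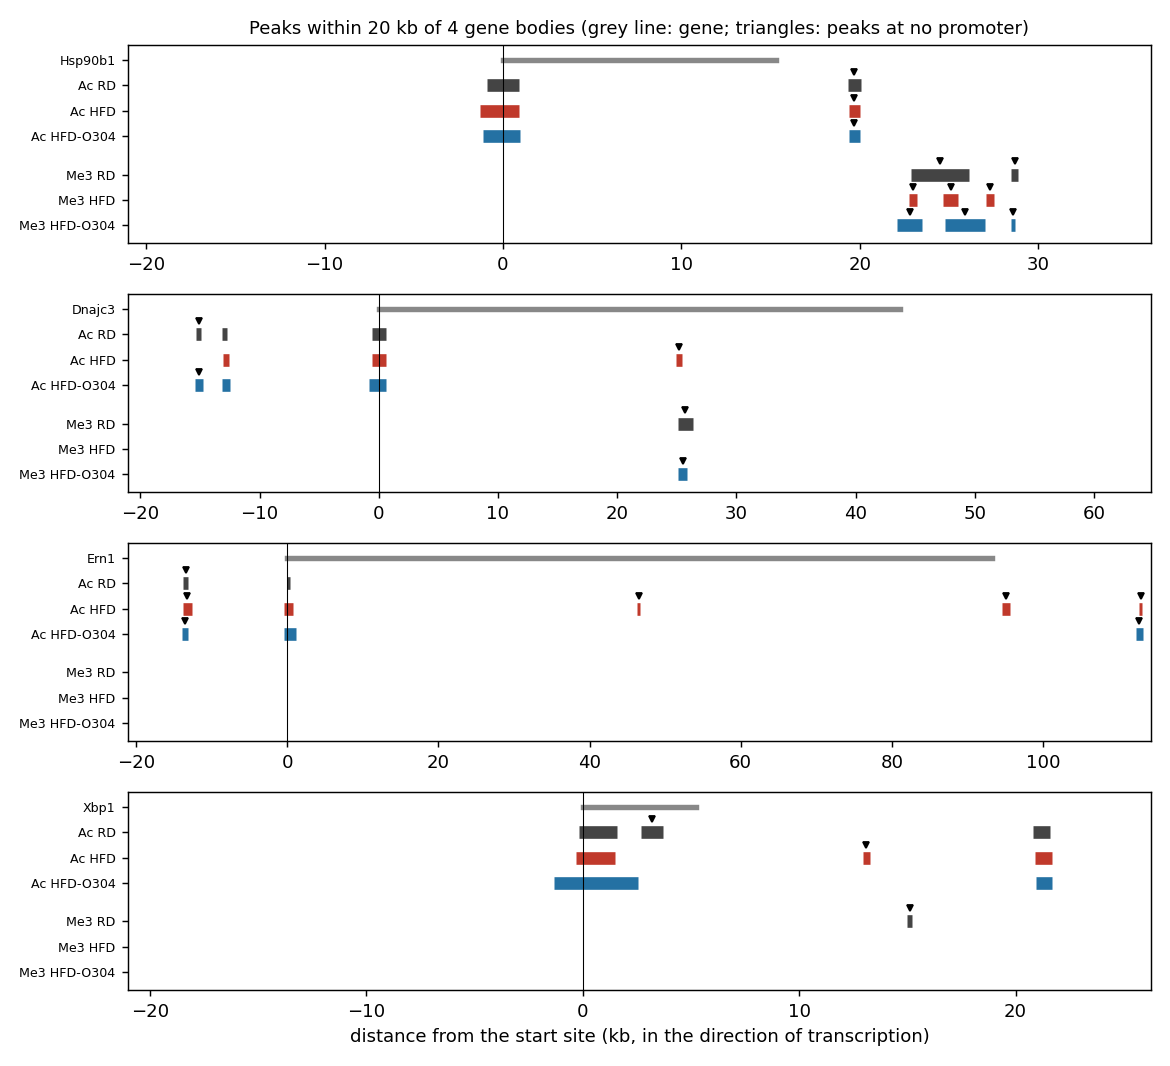
Peaks of H3K27Ac (Ac) and H3K27Me3 (Me3) by diet within 20 kb of the gene bodies of Hsp90b1, Dnajc3, Ern1 and Xbp1, as distance in kb from the start site in the direction of transcription. Grey lines are the gene bodies and triangles mark peaks at no protein-coding promoter. About 25 kb into Dnajc3, H3K27Ac of HFD faces H3K27Me3 of RD and HFD-O304.

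The other genes of the pathway gave a similar picture. Of 48 further genes, 44 had H3K27Ac at the promoter in RD and 45 had it in each of the other diets, while 0 had H3K27Me3. Over all protein-coding genes the shares in RD, HFD and HFD-O304 were 44.1%, 49.8% and 49.4% for H3K27Ac. For H3K27Me3 they were 6.63%, 8.46% and 8.87%. All 14 folding enzymes and chaperones and all 11 genes of ER-associated degradation and the IRE1 branch were acetylated in each diet. This held for 12 of 14 genes of the PERK branch and integrated stress response, and for 7, 8 and 8 of 9 genes for ATF6 processing and other ER stress factors. Without H3K27Ac in this promoter window in any diet were Atf3, Nupr1 and Creb3l3. Atf3 and Nupr1 are stress-induced regulators downstream of ATF4, and Creb3l3 is a membrane-bound factor best known from the liver. When all protein-coding transcript starts were used, 45, 46 and 46 of the 48 genes had H3K27Ac in RD, HFD and HFD-O304. Not all of these absences therefore held in HFD and HFD-O304. Mbtps2, the protease that makes the second cut in ATF6, had a peak in HFD (2.57 times the background) and HFD-O304 (2.66 times) and not in RD.

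The 48 genes had a median pileup of 3.42, 3.78 and 3.68 times the background in RD, HFD and HFD-O304. Ranked by the median over the diets among genes with a peak in all 3, the highest were Vcp, the ATPase that draws proteins out of the ER membrane (4.38, 5.62 and 4.96), Herpud1, a component of ER-associated degradation (4.38, 4.97 and 4.67), and Cebpb, a bZIP transcription factor (3.73, 4.38 and 4.54). By the same ranking the lowest were Calr, the chaperone calreticulin (3.09, 2.60 and 2.69), Derl3, another component of ER-associated degradation (3.15, 2.73 and 2.55), and Creb3l1, a membrane-bound transcription factor (2.54, 3.28 and 2.92). Calr and Derl3 were highest in RD, as Dnajc3 was, and so were others of the 48, among them Canx (4.27, 3.98 and 3.99). Derl3, Dnajb9 (4.33, 4.24 and 4.01), Ero1b (4.07, 3.94 and 3.38) and Derl2 (3.19, 3.18 and 3.15) also shared the descending order of Dnajc3. How often this order occurs over all promoters was not counted. Of the genes with a peak in both lists, 30 of 44 were higher in HFD than in RD (median fold 1.10), 19 of 45 were higher in HFD-O304 than in HFD (0.98), and 30 of 44 were higher in HFD-O304 than in RD (1.05). Over all promoters with a peak in both lists, 66.5%, 55.4% and 71.1% were higher in the same comparisons. Their median folds were 1.05, 1.01 and 1.06.

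The ER stress response element was also found in 6 of the 40 further genes with a promoter entry, Calr, Canx, Pdia6, Creld2, Syvn1 and Derl3. Its second form was found in Dnajb11 and Herpud1, and the XBP1 core site in Vcp. The ATF4 and CHOP site was found in 5, namely Herpud1, Atf3, Chac1, Asns and Nupr1. Over all promoters the shares of these motifs, in the same order, were 0.157%, 0.0484%, 0.696% and 3.52%. These genes too were chosen as parts of the pathway, so the matches are a description and not independent support. A match describes these letters only, and acetylated promoters with and without a match were both present in the group.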

How the data were processed

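Mouse islet H3K27Ac and H3K27Me3 ChIP-seq was used as 6 peak lists. The authors mapped reads to GRCm38 with Bowtie2, merged 2 replicates per mark and diet, and called broad peaks with MACS 2.1.2 without a control, at a q of 0.01 per the file headers. The deposited columns used were the peak position and length, the mean pileup (a coverage signal in fragments per base), the fold enrichment (a ratio of pileup plus 1 to background plus 1), and the −log10 q of the peak. The deposited −log10 p was not used. The inputs were not used here.

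From these, pileup was divided by kept fragments times fragment size over the effective genome size, 1.87e+09, and fragments per peak were taken as pileup times length over fragment size. Where several peaks met a promoter, that covering most of it was taken. Overlap needed 1 bp. Intervals at 95% were exact Poisson intervals, and those of folds came from the binomial split of fragments. The formula for folds was tested on simulated counts in windows of equal, fixed length, and the overlap of peaks on simulated intervals. Peaks of unequal length with ends set by the same reads were not simulated, so the coverage of the intervals for such peaks was not tested. Repeats were lower-case bases of the reference. Python 3.11.15, pandas 2.3.3, SciPy 1.17.1 and pysam 0.24.0 were used.

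The 10 genes, the 48 further genes, the markers and the motifs were chosen with earlier results of these data known. The result for 1 marker list is not reported here. Of the 48, named by rule were those with H3K27Me3, those without H3K27Ac or with a call that differed between diets, and the 3 highest and 3 lowest medians. Genes with a motif match were named as well. Canx, Dnajb9, Ero1b and Derl2 were named outside the rule for their order over the diets, after their values had been seen.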

Additional observations from a re-analysis of the deposited data

How the results depend on the processing

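The promoter counts of the 10 genes hardly depended on the settings tried, which were a −log10 q of at least 5, a common minimum ratio, lists of equal size, promoter windows of 500 bp and 2 kb, all protein-coding transcript starts, an overlap of 200 bp, and removal of peaks with at least 50% repeats. At a −log10 q of at least 5, Atf6 and Trib3 lost their H3K27Ac peak in RD and Atf6 in HFD. H3K27Me3 stayed at 0 of 10 throughout. Of the 48 further genes, 1, Atf3, had H3K27Me3 in each diet with all transcript starts, and in HFD-O304 with the 2 kb window. With all transcript starts, the H3K27Ac counts of the 48 rose from 44, 45 and 45 to 45, 46 and 46 in RD, HFD and HFD-O304. Within the gene windows, the H3K27Ac counts in RD, HFD and HFD-O304 became 32, 35 and 31 at 50 kb and 14, 17 and 13 at 10 kb. They became 14, 17 and 19 at a −log10 q of at least 5, and 21, 20 and 22 at the common minimum ratio. At both of these settings HFD-O304 rather than HFD had the most. When the nearest start site had to be that of the member, the counts were 13, 13 and 12. The H3K27Me3 counts became 8, 8 and 12 at 50 kb, 0, 1 and 2 at a −log10 q of at least 5, and 0 in RD at the common minimum ratio. They became 1, 0 and 1 without repeat-rich peaks, a setting chosen after seeing the data. Weighted by the share of the window covered, the median H3K27Ac level was 2.91, 3.39 and 3.15 in RD, HFD and HFD-O304, and the median fold was 1.17 for HFD over RD, 0.95 for HFD-O304 over HFD and 1.08 for HFD-O304 over RD. This weighting turned the direction of 0 members for HFD over RD, 5 for HFD-O304 over HFD and 2 for HFD-O304 over RD. The folds of HFD over RD became 3.68 for Ern1 and 2.23 for Trib3, whose peaks differed in width between the lists. The deposited fold and the highest peak left the 8, 2 and 7 members that were higher in these comparisons as they were. No paired analysis was possible because each list joins both replicates of its group, which also kept single replicates from being left out. The depth of the lists limits what was callable, at 2.26 to 2.40 times the background for H3K27Ac and 2.74 to 3.10 times for H3K27Me3.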
